A study of Mus musculus with 20 samples.

Results

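Runx1, Runx2, Runx3 and Cbfb, the mouse genes for the core-binding factor, were examined in chromatin immunoprecipitation sequencing (ChIP-Seq) peak lists from lineage-negative (Lin-) bone marrow cells. They are 4 of the 21951 protein-coding genes of the annotation, and their peaks were taken by position alone, as every peak that overlapped a gene body extended by 50 kb on each side. By this rule 1194 of the 591292 peaks in the 12 lists belonged to the 4 genes, with 491 at Runx1, 366 at Runx2, 237 at Runx3 and 100 at Cbfb. The lists covered H3K27ac, H3K4me1 and H3K4me3 in 4 genotypes, with 1 library for each genotype and mark. Differences between genotypes therefore had no replicate check, no p-value is given, and the intervals below are exact Clopper-Pearson 95% intervals that cover counting error only. WT mice were Ep300 fl/fl without Cre. Ep300Δ/Δ mice were Mx1-Cre Ep300 fl/fl, Tet2-/- mice were Ep300 fl/fl Tet2-/-, and Ep300Δ/Δ Tet2-/- mice were Mx1-Cre Ep300 fl/fl Tet2-/-. All were C57BL/6 and all received poly(I:C), the double-stranded RNA that induces the interferon-driven Mx1-Cre, which is active in blood and also in other tissues, so the WT controls carried the floxed allele and the treatment but not the Cre. Per the methods, poly(I:C) was given at 6 to 8 weeks of age. The methods place experiments in general 2 weeks after the injections or at a time stated for each, and no time specific to the ChIP-Seq and no pooling of mice were given in the sources used here. The stated purity of the lineage-depleted cells was above 80%.

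The core-binding factor is a heterodimer. A RUNX protein binds DNA through its Runt domain, and CBFβ, encoded by Cbfb, does not touch DNA but strengthens that binding. Runx1 is needed for definitive haematopoiesis and is recurrently mutated or translocated in leukaemia, Runx2 is the master regulator of osteoblasts, and Runx3 acts in T cells and sensory neurons. Each Runx gene has a distal promoter, P1, and a proximal promoter, P2, which start isoforms with different N termini. RUNX1 recruits p300, the acetyltransferase encoded by Ep300, which acetylates histone H3 at lysine 27 at active enhancers and promoters. H3K4me1 marks enhancers whether active or not, H3K4me3 marks promoters, and TET2 oxidises 5-methylcytosine in DNA.

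The peak lists held 18327 to 29659 peaks for H3K27ac, 90738 to 107392 for H3K4me1 and 25012 to 27807 for H3K4me3. Read depth is not recorded in peak lists, so a mark that was not called may be below detection, and fold enrichment was compared only as its percentile within its own list. Promoters of 7, 7, 6 and 6 of 8 stem and progenitor markers carried H3K27ac in WT, Ep300Δ/Δ, Tet2-/- and Ep300Δ/Δ Tet2-/- cells, and that order of genotypes is kept below. Of 4 T cell, 5 osteoblast and 4 hepatocyte or muscle markers, 0 carried it in any list. H3K4me3, however, was called at 0, 1, 1 and 1 of the T cell markers and 0, 0, 1 and 1 of the osteoblast markers. Of the hepatocyte or muscle markers 2 carried H3K4me3 in every list. These lists do not cover every cell type of the marrow and do not show that the 4 genotypes had the same makeup. For H3K27ac, erythroid markers counted 2, 3, 2 and 3 of 4 and endothelial markers 1, 1, 2 and 1 of 4. The part of these cells in the results was not tested, and a smaller share of cells with a mark cannot be told apart from less of the mark per cell. The lists give no check on either deletion.

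The sequence at the centre of the Runx1 results lies in an intron between P1 and P2. The H3K27ac region there, at chr16:92800489-92802690 (mm10), was centred 24.6 kb downstream of the P1 start, at the position of the intronic haematopoietic enhancer commonly called +23. Within it, the 300 bases with the most matches to the 5 motifs searched are printed from the plus strand of chr16:92800794-92801093, from GRCm38, the assembly that mm10 names. They lie 25.1 to 25.4 kb downstream of P1 and overlap no annotated exon. Capitals mark the 7 matches, on either strand. Of these 3 matched TGTGGT, the RUNX motif, 2 matched AGGAAG, the ETS motif, 1 matched AGATAA, the motif of GATA factors, and 1 matched an E-box, searched as CAGCTG and also as CAGATG. The MYB motif, searched as AACGG, had no match. The window was chosen for its matches, so their number is a description and not a measure of enrichment.
Runx1 intronic enhancer: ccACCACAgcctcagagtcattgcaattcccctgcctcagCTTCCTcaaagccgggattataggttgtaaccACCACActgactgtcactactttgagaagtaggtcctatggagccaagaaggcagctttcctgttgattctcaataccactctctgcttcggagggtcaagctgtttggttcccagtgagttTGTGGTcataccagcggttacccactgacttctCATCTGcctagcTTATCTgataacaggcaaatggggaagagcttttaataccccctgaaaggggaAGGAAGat
The Runx1 region chr16:92714645-92717013 lay in an intron upstream of P2, at -18.5 kb from its start, and the region chr16:92866974-92868849 lay in an intron of Gm49723 upstream of P1, at -41.8 kb from its start. Their 200 bases around the WT summits, from the plus strand of chr16:92716157-92716356 and of chr16:92867846-92868045, are shown because these regions, with the enhancer, ranked highest by H3K27ac outside promoters at Runx1. Capitals again mark motif matches.
Runx1 upstream of P2: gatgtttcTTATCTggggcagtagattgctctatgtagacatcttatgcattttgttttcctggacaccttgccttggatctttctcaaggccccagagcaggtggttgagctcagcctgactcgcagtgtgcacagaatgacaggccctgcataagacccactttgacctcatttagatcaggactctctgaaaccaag
Runx1 upstream of P1: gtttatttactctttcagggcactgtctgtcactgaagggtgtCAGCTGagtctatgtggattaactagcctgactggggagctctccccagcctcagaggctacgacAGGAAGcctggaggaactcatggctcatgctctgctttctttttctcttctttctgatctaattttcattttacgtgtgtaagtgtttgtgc

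In the 200 bases before each annotated start, the ratio of observed to expected CG dinucleotides was 0.0962 at Runx1 P1 and 1.05 at Runx1 P2. At Runx3 it was 0.249 at P1 and 0.934 at P2, and at Runx2 P1 it was 0. The single Cbfb promoter had a ratio of 1.08. Over 21933 protein-coding promoters the median was 0.505 and the quartiles were 0.198 and 0.796. The RUNX motif occurred once before Runx2 P1 and 2 times before Runx3 P1, and in 10.5% of all promoters in windows of the same length. The sequences are printed 5′ to 3′ on the strand of the gene, from chr16:92826150-92826349, chr16:92697329-92697528, chr17:44814798-44814997, chr4:135120452-135120651, chr4:135152296-135152495 and chr8:105170474-105170673, with capitals for CG dinucleotides and RUNX motifs.
Runx1 P1: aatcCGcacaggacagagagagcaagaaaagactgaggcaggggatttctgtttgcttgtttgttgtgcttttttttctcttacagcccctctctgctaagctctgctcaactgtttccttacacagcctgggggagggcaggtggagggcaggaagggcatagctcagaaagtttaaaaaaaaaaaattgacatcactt
Runx1 P2: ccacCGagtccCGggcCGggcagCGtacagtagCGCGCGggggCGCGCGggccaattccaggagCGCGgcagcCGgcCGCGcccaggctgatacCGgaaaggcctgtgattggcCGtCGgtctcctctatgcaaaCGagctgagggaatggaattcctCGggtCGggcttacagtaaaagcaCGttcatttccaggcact
Runx2 P1: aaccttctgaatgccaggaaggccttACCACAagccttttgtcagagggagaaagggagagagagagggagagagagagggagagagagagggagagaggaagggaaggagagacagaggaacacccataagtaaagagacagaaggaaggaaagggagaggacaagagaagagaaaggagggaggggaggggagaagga
Runx3 P1: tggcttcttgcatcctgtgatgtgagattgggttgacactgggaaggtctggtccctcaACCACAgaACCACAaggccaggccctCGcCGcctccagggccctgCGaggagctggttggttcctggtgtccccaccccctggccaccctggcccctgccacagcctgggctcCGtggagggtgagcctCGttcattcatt
Runx3 P2: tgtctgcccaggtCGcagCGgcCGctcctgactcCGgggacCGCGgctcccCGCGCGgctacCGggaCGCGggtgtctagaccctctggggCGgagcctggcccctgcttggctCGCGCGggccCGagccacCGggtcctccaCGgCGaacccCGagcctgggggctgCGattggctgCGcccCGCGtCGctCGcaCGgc
Cbfb: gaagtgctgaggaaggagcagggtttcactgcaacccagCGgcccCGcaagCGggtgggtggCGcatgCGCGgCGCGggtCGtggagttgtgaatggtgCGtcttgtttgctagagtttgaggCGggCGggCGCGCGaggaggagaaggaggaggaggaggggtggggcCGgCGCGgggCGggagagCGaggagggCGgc

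At the 4 genes together, H3K27ac peaks numbered 61 in WT, 50 in Ep300Δ/Δ, 43 in Tet2-/- and 31 in Ep300Δ/Δ Tet2-/- cells, the fewest in the double mutant. At Runx1 the counts were 27, 23, 20 and 12, at Runx2 17, 13, 12 and 9, at Runx3 12, 8, 7 and 5, and at Cbfb 5, 6, 4 and 5. The 3 Runx genes thus had the same order of genotypes, and Cbfb did not. The H3K27ac lists as a whole held 29659, 22727, 24539 and 18327 peaks, and of the member peaks 1, 6, 1 and 0 had a q above 0.05. The part of list size in these counts was not tested. H3K4me1 counts were 239, 206, 226 and 218 and H3K4me3 counts 29, 27, 32 and 32, with no such order.

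Because peaks of unequal width were counted alike, the length covered by H3K27ac was compared as well. At Runx1 it was 24.1 kb in WT, 13 kb in Ep300Δ/Δ, 16.8 kb in Tet2-/- and 11.3 kb in Ep300Δ/Δ Tet2-/- cells, which is 54.1%, 69.7% and 46.9% of WT. Runx3 covered 8.16, 3.61, 4.09 and 3.02 kb, or 44.2%, 50.2% and 37.1% of WT. Over the whole genome the corresponding values were 61.3%, 79.9% and 63.4%, so both genes kept a smaller part of their H3K27ac than the genome did. Among 9727 genes with at least 2 kb in WT, the medians were 66.5%, 82.7% and 66.7%, and 13.5%, 6.93% and 11.1% of genes lay below Runx3. For Runx1 those shares were 26.5%, 27.1% and 21.2%, near the lower quartile of all genes. In WT 22 of 27 Runx1 peaks and 9 of 12 Runx3 peaks lay outside promoters, against 10830 of 29659 in the genome. Over the genome such regions lost their call more often after Ep300 deletion in the WT background, 62.5% against 26.5% at promoters. The comparison was not matched for this mix, and its part in the lower values was not tested. Runx2 kept 62.3%, 72.3% and 59.8%, and Cbfb, with 3.14 kb in WT, kept 80.1%, 91.7% and 75.2%. Most of the Cbfb length lay at the starts of neighbouring genes, since only 1133 bases in WT were at the Cbfb promoter, and over the gene body alone the values were 89.5%, 98.5% and 53.9%. The Cbfb values also depended on other settings. In Tet2-/- cells Cbfb kept 42.6% both at −log10 q of 5 or more and with every list reduced to the same number of peaks, where the genome kept 81.8% and 88.9%. In the double mutant the gene body value of 53.9% compares with 63.4% in the genome. The Runx2 value in the Ep300Δ/Δ list was close to that of the genome, but it was 36.7% at the stricter q, against 54.1%. With lists of the same number of peaks the Runx2 values were 95.1%, 117% and 122%, against 71.9%, 88.9% and 83.6%. H3K4me1 covered 87.4%, 106% and 87.8% of its WT length at Runx1, near the medians of 87.5%, 103% and 88.8% over 13962 genes. At Runx2 the values were 86.8%, 108% and 101%, at Runx3 79.2%, 118% and 87%, and at Cbfb, with 7.03 kb in WT, 113%, 126% and 117%. The Cbfb values describe its window and its neighbours, as most of this H3K4me1 lay outside the gene body.

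**Figure D1:**
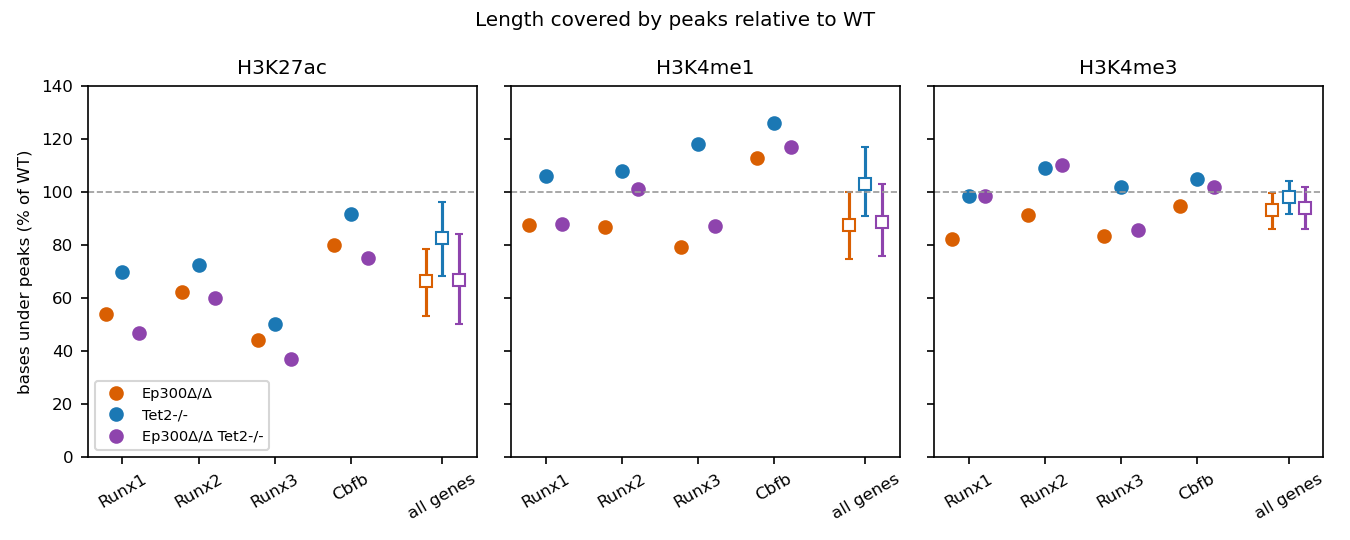
Length covered by peaks at Runx1, Runx2, Runx3 and Cbfb in each genotype, as a percent of WT, for each of the 3 marks. Open squares give the median over all genes with at least 2 kb in WT, with bars from the lower to the upper quartile. For H3K27ac, Runx1 (54.1%, 69.7% and 46.9%) and Runx3 (44.2%, 50.2% and 37.1%) lie below the median of all genes in the 3 mutants, and Cbfb is drawn at 80.1%, 91.7% and 75.2%.

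Loss of H3K27ac regions after Ep300 deletion was then counted by presence or absence, a region being lost when no peak of the second list overlapped it. Regions of a gene are neighbours and not independent, and the 4 contrasts share lists. In the WT background 22 of 59 regions at the 4 genes were lost, or 37.3% (25 to 50.9), against 39.7% of all regions in the genome, and 5 of 42 were gained, or 11.9%, against 12.8%. In the Tet2-/- background 17 of 41 were lost, or 41.5% (26.3 to 57.9), against 37.8%, and 4 of 28 were gained, or 14.3%, against 15%. These shares lay close to the genome, within their counting intervals. Comparing Tet2-/- with WT cells, 25 of 60 regions were lost, or 41.7% (29.1 to 55.1), against 35.6%. Comparing the double mutant with Ep300Δ/Δ cells, 20 of 45 were lost, or 44.4% (29.6 to 60), against 31.2%. These intervals too included the genome values. The share lost in the WT background moved to 60%, against 45.8% in the genome, under a stricter cutoff on the −log10 q (5 or more), and to 17.4%, against 12.9%, for regions above their list's median fold. Where the shares of the other contrasts moved with looser overlap, equal list sizes, stricter q or stronger peaks, they lay between 0% and 25.9%, and the genome values at those settings lay between 8.77% and 29.5%.

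The regions lost lay mainly outside promoters, defined as 3 kb on either side of an annotated start. Of the 22 regions lost in the WT background 20 were distal, from 41 distal regions, or 48.8% (32.9 to 64.9), against 62.5% in the genome. Before deletion 41 of 59 regions were distal at these genes, against 10755 of 29313 in the genome. Of the regions lost in the genome 6726 of 11639 were distal. In the Tet2-/- background 15 of 25 distal regions were lost, or 60% (38.7 to 78.9), against 61.9%. Promoter regions were lost at 2 of 18, or 11.1%, against 26.5% in the WT background. In the Tet2-/- background this was 2 of 16, or 12.5%, against 26.8%. Without Tet2 the distal losses were 19 of 41, or 46.3%, against 55.3% with Ep300 present, and 15 of 25, or 60%, against 51.6% with Ep300 deleted. The interval held the genome value in both Ep300 contrasts. By the WT list's median fold, 3 of 12 stronger distal regions were lost after Ep300 deletion (25%) and 17 of 29 weaker ones (58.6%), and the genome gave 31.4% and 77%. In the Tet2-/- background the counts were 3 of 9 and 12 of 16, and the genome gave 27.3% and 75.4%.

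Among distal regions called in both lists, the percentile of H3K27ac fold was lower after Ep300 deletion in 16 of 21 regions in the WT background, with a median shift of -18 points, and in 8 of 10 in the Tet2-/- background, with a median of -24. These are 76.2% and 80% of the regions, against 73.4% and 64.8% in the genome, where the medians were -13.4 and -7.62 points. The lists compared differ in length. At promoters of the 4 genes the medians were -6.42 and -8.56 points, against -4.62 and -5.31 in the genome. Without Tet2, distal percentiles were lower in 13 of 22 regions with Ep300 present, or 59.1%, against 61.9%. With Ep300 deleted they were lower in 9 of 10, or 90%, against 53.3%. The distal medians were -12.3 and -15.1 points, against -6.98 and -1.76. Lower ranks were thus not particular to Ep300 deletion.

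Across all 4 lists, 10 of 46 distal H3K27ac regions were called in every genotype, or 21.7% (10.9 to 36.4), against 14.4% in the genome, and 12 of 21 promoter regions, or 57.1% (34 to 78.2), against 49.9%. A further 13 distal regions were called in WT only, 4 in both genotypes with Ep300 and neither without, and 0 in both without Ep300 and neither with. In the genome these patterns held for 4589, 1310 and 100 of 14280 distal regions. Of the 10 kept in all genotypes, 5 were at Runx1, 2 at Runx2 and 3 at Runx3.

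H3K4me1 outside promoters, pooled over the 4 genes, was lost at lower shares than in the genome. Over all regions, after Ep300 deletion 63 of 222 regions were lost in the WT background, or 28.4% (22.5 to 34.8), against 36.7% in the genome, and 62 of 217 in the Tet2-/- background, or 28.6% (22.7 to 35.1), against 31.1%. For distal regions alone the losses were 47 of 177, or 26.6% (20.2 to 33.7), against 41.9%, and 48 of 174, or 27.6% (21.1 to 34.9), against 35.4%. The pooled distal intervals lay below the genome in both backgrounds, but the genes differed. In the WT background the distal losses were 20 of 80 at Runx1 (25%), 11 of 58 at Runx2 (19%), 16 of 38 at Runx3 (42.1%) and 0 of 1 at Cbfb, so that Runx3 was near the genome share. In the Tet2-/- background they were 25 of 83 (30.1%), 11 of 55 (20%), 11 of 34 (32.4%) and 1 of 2. Without Tet2 the pooled distal losses were also lower, 28 of 164, or 17.1% (11.7 to 23.7), against 30% with Ep300 present. With Ep300 deleted they were 30 of 152, or 19.7% (13.7 to 27), against 28.2%. Distal gains after Ep300 deletion were 21 of 151, or 13.9%, against 25.7%, and 27 of 153, or 17.6%, against 23.4%. Lower shares were thus not particular to losses after Ep300 deletion. At promoters 16 of 45 H3K4me1 regions were lost in the WT background, or 35.6% (21.9 to 51.2), against 29.8%, and 14 of 43 in the Tet2-/- background, or 32.6% (19.1 to 48.5), against 25%. Of 215 distal H3K4me1 regions 100 were called in every genotype, or 46.5% (39.7 to 53.4), against 30.2%, whereas 22 of 59 promoter regions were, or 37.3% (25 to 50.9), against 40.2%. For H3K4me3 the shares were 17 of 20 promoter regions, or 85%, against 73.1%, and 7 of 15 distal regions, or 46.7%, against 41.3%.

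**Figure D2:**
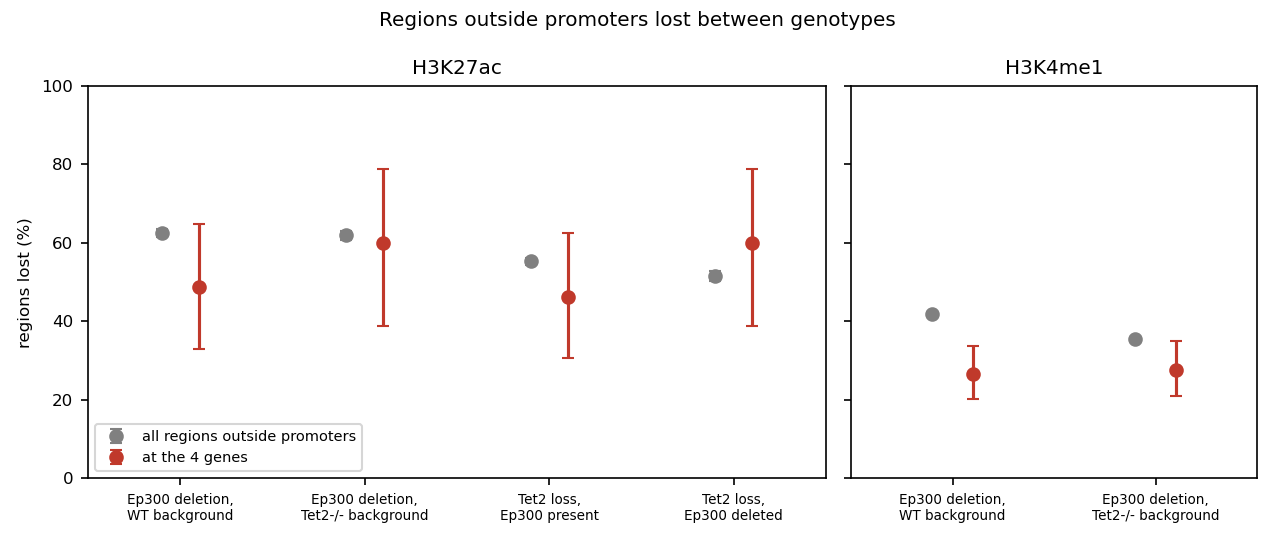
Percent of regions outside promoters lost between genotypes, for H3K27ac over 4 contrasts and for H3K4me1 over the Ep300 contrasts, at the 4 genes and in the whole genome, with exact 95% intervals. At the 4 genes 26.6% and 27.6% of distal H3K4me1 regions were lost after Ep300 deletion, against 41.9% and 35.4%, while the H3K27ac shares (48.8% and 60% after Ep300 deletion) have wide intervals.

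All distal H3K27ac peaks at these genes, 42, 28, 27 and 14 in the 4 genotypes, lay on H3K4me1 called in that genotype, against 87.8%, 88.6%, 85.7% and 87.5% in the genome. Of the 20 distal regions that lost H3K27ac after Ep300 deletion in the WT background, 20 kept an H3K4me1 peak in Ep300Δ/Δ cells, and 14 of the 15 lost in the Tet2-/- background kept one in the double mutant. Genome shares were 76.4% and 79.3%, but only 86% and 83.9% of the genome regions carried H3K4me1 before deletion, against 100% at the 4 genes, so these shares are not like for like. All but 1 of these regions thus kept a call of H3K4me1 where H3K27ac was no longer called.

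Runx1 held 22, 18, 15 and 7 distal H3K27ac peaks, which placed it 8th, 4th, 11th and 29th among 21938 protein-coding genes by number. Windows of long genes can hold more peaks, and per 100 kb of window 99.2%, 99.5%, 99.1% and 97.7% of genes had a lower density than Runx1. Runx2 held 11, 5, 7 and 4, Runx3 9, 5, 5 and 3, and Cbfb 0 in every list. The intronic enhancer described above was called in every genotype. Its H3K27ac fold over H3 was 21.4, 10, 14.1 and 8.1, which ranked at percentile 91.3, 75.5, 82.6 and 59 of the respective lists, and peaks covered 2057, 1399, 2013 and 2075 of its 2202 bases. Over the whole window from 21 to 26 kb downstream of P1, which held a further peak in every list but that of the double mutant, they covered 2947, 1712, 2567 and 2075 bases. The double mutant was thus close to WT within the region and below it over the window. The lists differ in length, and with lists of the same number of peaks the enhancer ranked at 85.9, 69.6, 76.7 and 59, and at a −log10 q of 5 or more at 88.8, 60.7, 78.6 and 50.8. In all these settings the rank was highest in WT and lowest in the double mutant, with 1 library each. H3K4me1 at the enhancer ranked at percentile 99.2, 99.1, 99.7 and 96.5, among the strongest of each list, and a weak H3K4me3 peak ranked at 21.6, 14.2, 10.4 and 8.48.

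The region upstream of P2 ranked at percentile 78.8, 67.9, 56.2 and 61.6 for H3K27ac. The region upstream of P1 ranked at 76.4 in WT and at 24.5, 34.9 and 37.5 in the mutants. Another region, chr16:92620304-92622375, 205 kb downstream of P1, ranked at 51, 51.9, 73.1 and 44.5. These regions were named for a high rank in at least 1 list, the region upstream of P1 through WT and the last one through Tet2-/-. Lower ranks in the other lists therefore follow in part from the choice, and the lists differ in length. The region chr16:92726651-92727006 was called in WT at percentile 63.7 and in Tet2-/- at 2.97, and in neither list without Ep300.

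**Figure D3:**
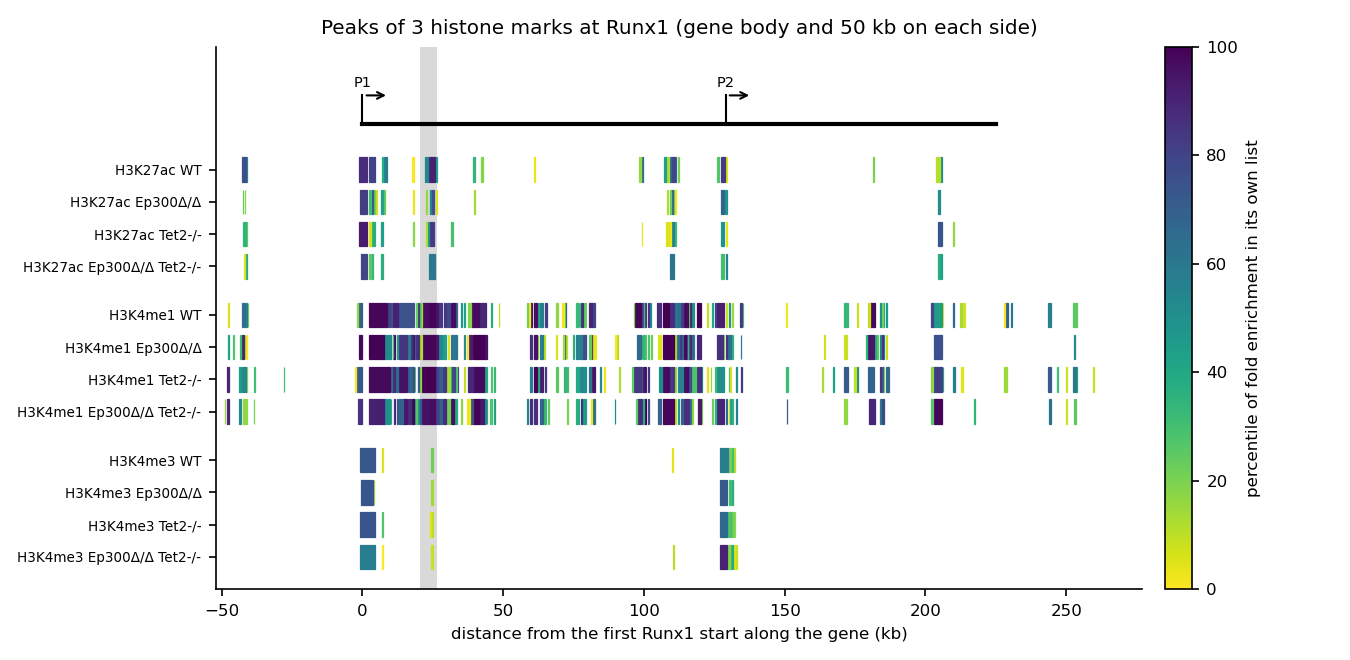
Map of H3K27ac, H3K4me1 and H3K4me3 peaks over the Runx1 window in the 4 genotypes, by distance in kb from the P1 start, coloured by fold percentile within each list, with the enhancer window in grey. Distal H3K27ac peaks go from 22 in WT to 7 in the double mutant, and the enhancer 24.6 kb downstream of P1 is called in every list.

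At the Runx1 promoters H3K27ac was called in every genotype. The P1 peak was 2.97, 2.7, 2.86 and 2.37 kb wide, at or above percentile 99.51 of widths in every list, and its fold ranked at 87.3, 82.3, 92.8 and 79.9. The P2 peak was narrower, at 1.25, 1.23, 1.12 and 1.2 kb, with fold ranks of 82.7, 68.1, 48.4 and 30.3, and a separate, shorter peak at the P2 start ranked at 5.37, 48.2, 3.61 and 55.2. The wider peak was highest in WT, and the shorter one was higher without Ep300 in both backgrounds. The H3K4me3 peak was 5.17, 4.47, 5.22 and 5.17 kb wide at P1 and 2.67, 2.55, 2.57 and 2.57 kb wide at P2. P1 thus had the wider domain of both marks in every genotype.

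Runx2 P1, the promoter of the bone isoform, had no H3K27ac peak in any list and a narrow H3K4me3 peak of 0.246, 0.198, 0.252 and 0.527 kb. Runx2 P2 carried H3K4me3 of 3.42, 3.38, 3.5 and 5.36 kb and H3K27ac whose strongest peak within 1 kb of the start ranked at 24.8, 59.1, 19.6 and 15.3. The adjacent H3K27ac region, centred 2.18 kb downstream of the P2 start and so also within the promoter, ranked at 24, 27.2, 44.7 and 69.1. The double mutant was lowest at the first and highest at the other. H3K27ac was thus called at P2 and not at P1, while H3K4me3 was called at both. The strongest distal region, chr17:44613555-44614699, in an intron 201 kb downstream of P1, ranked at percentile 85.2, 80.6, 90.7 and 52, with H3K4me1 and H3K4me3 in every list.

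The strongest H3K27ac peak within 1 kb of Runx3 P1 ranked at percentile 72.4 and 75.5 with Ep300 (WT and Tet2-/-) and at 26.7 and 28.4 without it (Ep300Δ/Δ and the double mutant). P2 ranked at 66.8, 60.5, 41.9 and 37.9. The value of 26.7 belongs to a shorter peak at the start, and the peak that matches the WT one ranked at 25.2 in Ep300Δ/Δ cells. P1 was thus lower in both lists without Ep300 and P2 in both without Tet2, over 1 library each and lists of unequal length. A pair of intergenic regions downstream of the gene, chr4:135203154-135204294 and chr4:135205274-135206450, carried all 3 marks in every list. Their H3K27ac ranked at 82.5, 67.1, 58 and 33.6 and at 78.5, 60.5, 82.8 and 39. They too were named for a high rank in at least 1 list, so no difference between genotypes is read from these ranks. A further region, chr4:135069554-135070664, lies across the upstream edge of the window, which its WT peak alone reached, and ranked at 44.5, 40, 58.8 and 38.2.

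Cbfb had H3K27ac at its promoter alone, with the other peaks of its window at the starts of D230025D16Rik, Tradd and Fbxl8. The strongest H3K27ac peak within 1 kb of its start ranked at percentile 76, 64.6, 39.1 and 52.2, and the widest was 1.13, 0.677, 1.12 and 0.366 kb wide. H3K4me3 there was 1.96, 1.94, 1.97 and 2.01 kb wide. The H3K4me3 domain was of near-equal width in the 4 lists. The H3K27ac region just downstream of the start was called as 1, 2, 1 and 2 peaks, which together covered 1133, 1014, 1116 and 611 bases and ranked, at their strongest, at 76, 64.6, 4.25 and 52.2. In Tet2-/- cells the rank of 39.1 belongs to a separate peak of 303 bases upstream of the start, called in that list alone. The width of the widest peak thus also depends on how the caller split the region.

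**Figure D4:**
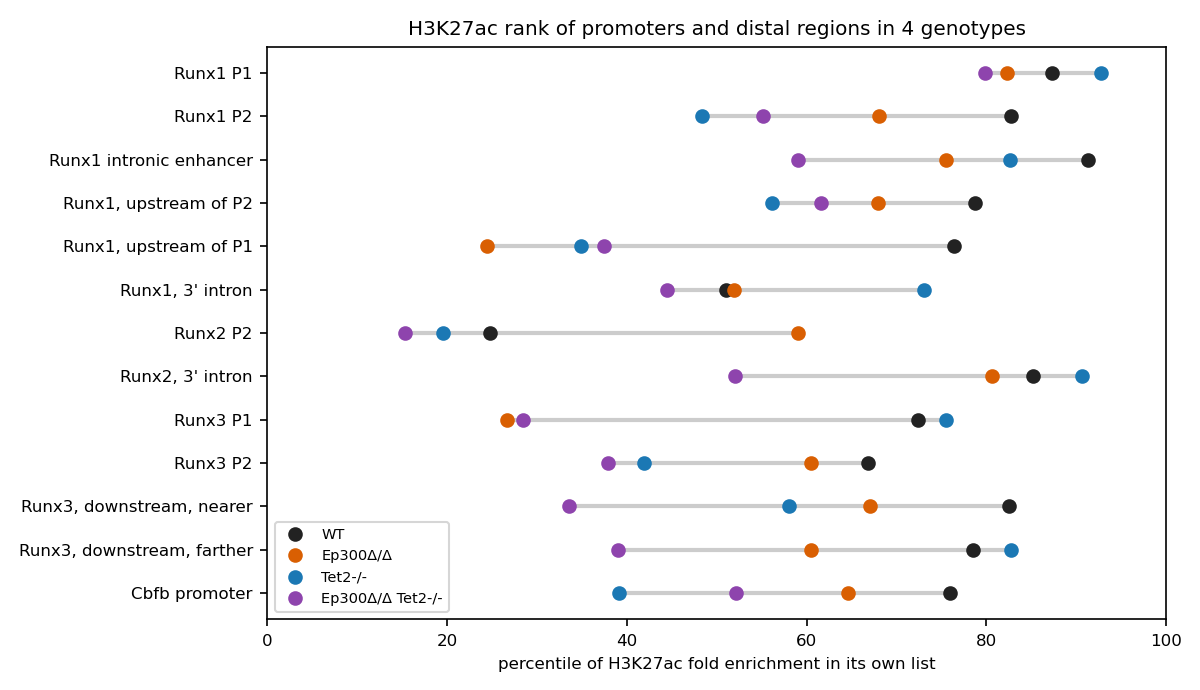
H3K27ac fold percentile within each list at the promoters of the 4 genes and at the named distal regions, 1 point per genotype; promoters show the strongest peak within 1 kb of the start, which at Runx1 P2 in the double mutant is the shorter peak (55.2) and at Cbfb in Tet2-/- cells the upstream one (39.1). The Runx1 enhancer goes from percentile 91.3 in WT to 59 in the double mutant, and Runx3 P1 sits at 72.4 and 75.5 with Ep300 and at 26.7 and 28.4 without it.

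**Figure D5:**
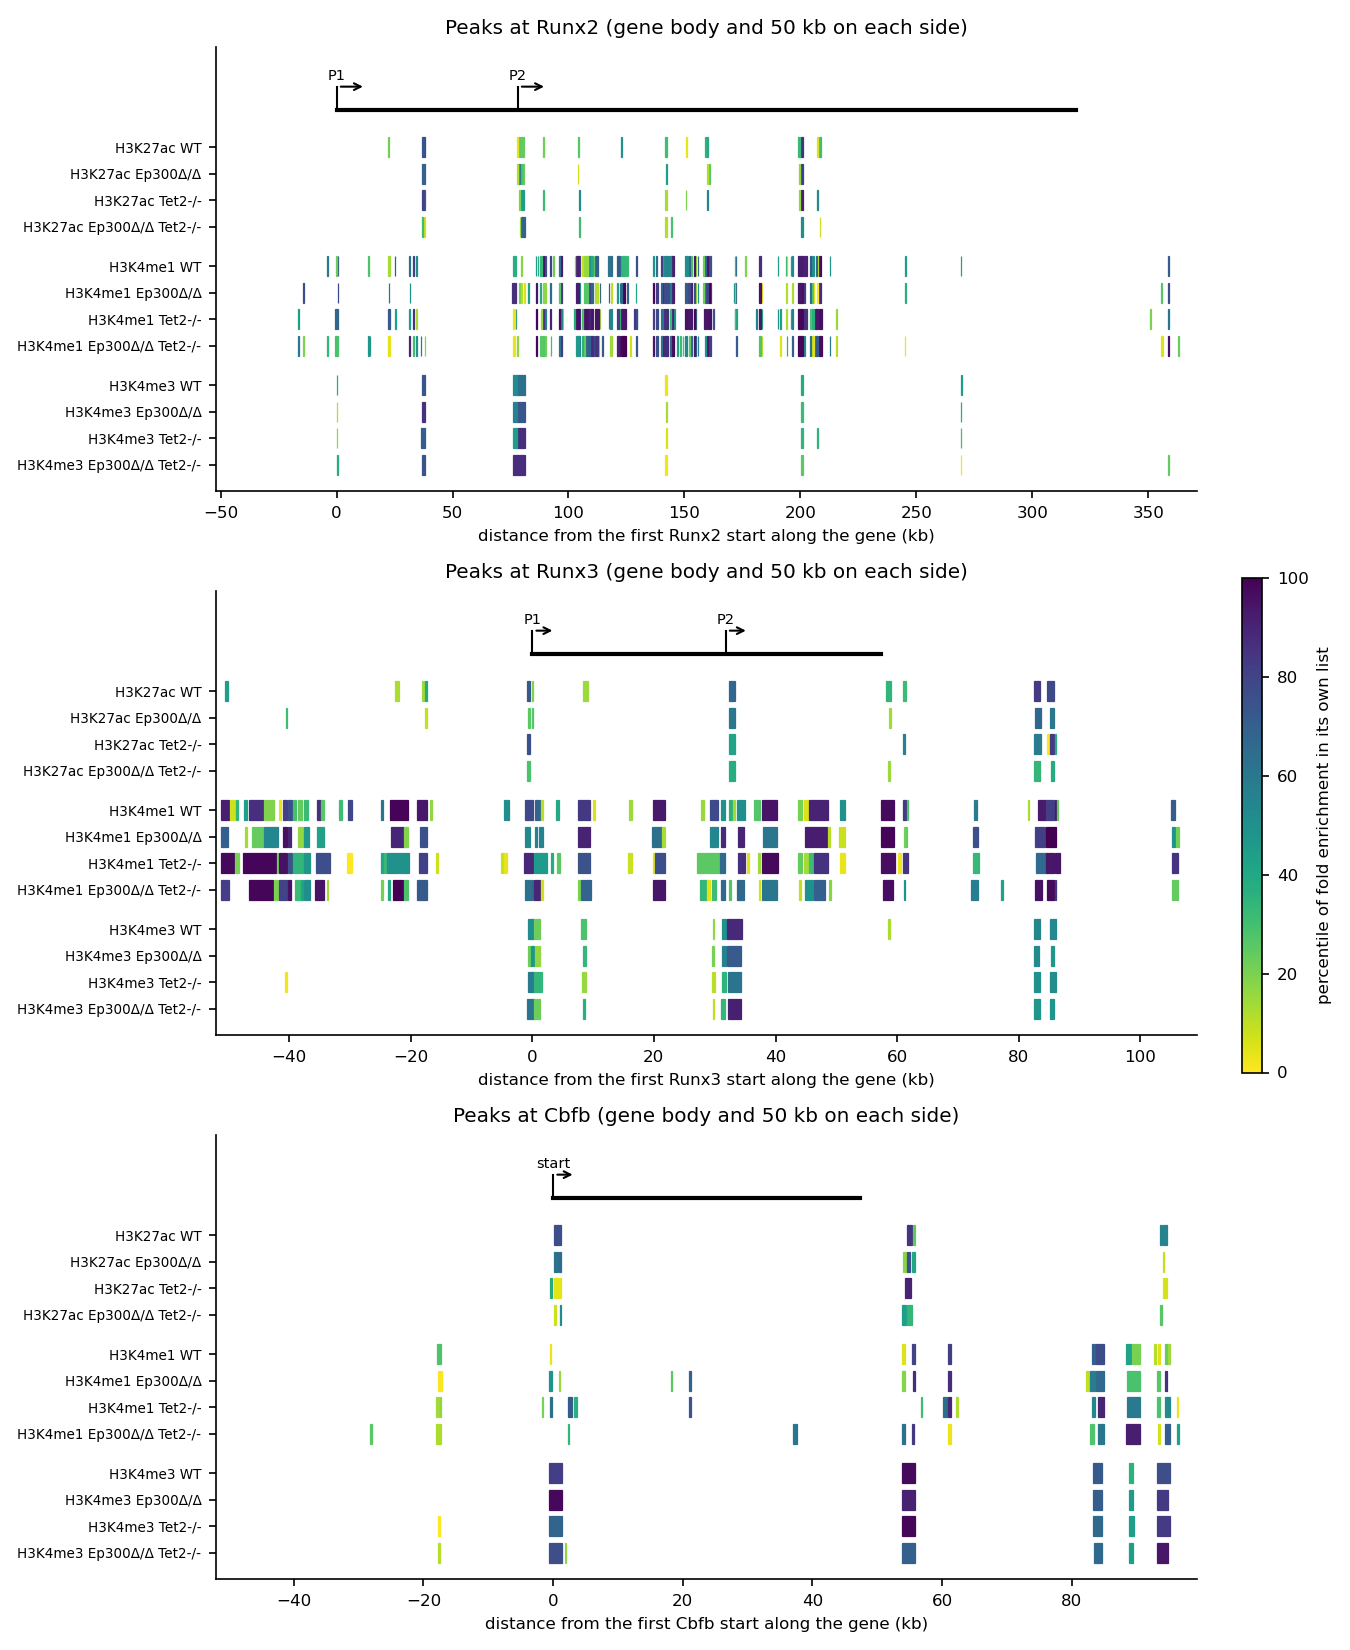
Maps of the peaks of the 3 marks over the Runx2, Runx3 and Cbfb windows in the 4 genotypes, by distance in kb from the first annotated start. Runx2 P1 has no H3K27ac peak, and Cbfb has 0 distal H3K27ac peaks in every list.

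Motifs were counted within 150 bases of the summits of distal H3K27ac peaks, on both strands, where an E-box can overlap another match. The RUNX motif occurred at 6 of 42, 5 of 28, 5 of 27 and 4 of 14 peaks of the 4 genes, or 14.3%, 17.9%, 18.5% and 28.6%, against 24.1%, 23.4%, 25.1% and 24.8% of distal peaks in the genome. The ETS motif occurred at 47.6%, 60.7%, 48.1% and 50%, against 42.6%, 45.3%, 47.2% and 48.4%. The WT intervals, 5.43 to 28.5 for RUNX and 32 to 63.6 for ETS, include the genome values.

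Partners and targets of the factor were described by H3K27ac at their promoters. Of 14 cofactors 12, 12, 13 and 10 carried it, and of 15 target genes 8, 9, 8 and 5, against 47.3%, 45%, 46.4% and 43.1% of all protein-coding genes. Cbfa2t3, a corepressor of the ETO family, and Kat6a, the MOZ acetyltransferase, lacked it in the double mutant alone, and Tle1, a Groucho corepressor, carried it in Tet2-/- cells alone. Among targets, Csf1r (the macrophage growth factor receptor), Elane (neutrophil elastase) and Cdkn1a (the cell cycle inhibitor p21) lacked it in the double mutant alone. Cebpa, a granulocytic transcription factor, lacked it in both Tet2-/- genotypes, and Pf4, the platelet chemokine, lacked it in WT alone. All of these genes kept H3K4me3 at their promoters in every list. They were named because their H3K27ac call varied between lists, as it did at 3 of 14 cofactors and 5 of 15 targets. Over all protein-coding genes it varied at 2289 of 21911. The double mutant list is the shortest, with 18327 peaks against 29659 in WT, and the part of list size in the missing calls was not tested.

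The genes most like each member were those with the smallest Euclidean distance over the 12 lists, on log2(1 + kb covered). Etv6 (0.742), Gm20696 (0.805) and Ptpre (0.871) were nearest to Runx1, where the median over all genes was 10.4. Cyth1 (0.344), Stat5a (0.522) and Foxn3 (0.529) were nearest to Runx2, and Ski (0.638), Iqgap2 (0.712) and Tbc1d8 (0.713) to Runx3. Rpusd3 (0.403), Trmt2a (0.447) and Ranbp1 (0.459) were nearest to Cbfb. The medians over all genes were 7.69 for Runx2, 7.27 for Runx3 and 4.1 for Cbfb. Trmt2a and Ranbp1 had equal lengths in most lists, and overlap between their windows was not checked. Etv6, for one, covered 30.1, 14.7, 17.5 and 9.82 kb with H3K27ac, beside the 24.1, 13, 16.8 and 11.3 kb of Runx1. Tbc1d8 covered 7.56, 3.77, 4.07 and 2.65 kb, beside the 8.16, 3.61, 4.09 and 3.02 kb of Runx3. Likeness was defined by these lengths, and shorter H3K27ac in the mutants was not particular to Runx1 and Runx3.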

How the data were processed

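ChIP-Seq of H3K27ac, H3K4me1 and H3K4me3 was analysed from 12 deposited narrowPeak lists, 1 library for each of 4 genotypes and 3 marks. The series holds 20 samples, and the 8 of H3 and H3K27me3 were not analysed here. Per the labels and the study's methods, the authors used Cutadapt 1.15 for trimming, BWA 0.7.13 for alignment (mm10), Picard for duplicate removal, and called peaks with MACS2 2.1.1.20160309 against H3, keeping those found in pseudo-replicates. Drosophila chromatin was added to the reactions as a spike-in, and whether it scaled these lists is not given in the sources used here. Labels give single-end reads and the methods paired-end reads. The authors' lists give a fold enrichment (a ratio over H3), −log10 p and −log10 q values and an integer score that was not used. The stated q limit is 0.05, yet 0.78% to 7.17% of H3K27ac peaks lie above it, most in the Ep300Δ/Δ list.

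Gene bodies came from GENCODE mouse release 21 (vM21, GRCm38), extended by 50 kb. Peaks of compared lists were merged, a region was shared at an overlap of 1 bp, and starts closer than 5 kb formed a promoter. Percentiles were taken within a list. Python 3.11.15, numpy 2.4.6, scipy 1.17.1, pysam 0.24.0 and bedtools 2.31.1 were used. Counting was tested on simulated lists, and 10 of 10 gave the known counts. No test between genotypes was possible with 1 library each. Named were all 4 genes, their promoters, the Runx1 enhancer (21 to 26 kb downstream of P1), per gene up to 5 distal H3K27ac regions with the highest percentile in any list, listed cofactors and targets whose promoter call varied, and the 3 most alike genes per member. The printed enhancer window was chosen after its values were seen. A marker list and a promoter sequence are not reported here. Members and lists were chosen with earlier results of these data known. Alternatives changed the overlap, q, list size, peak strength, promoter width and gene window.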

Additional observations from a re-analysis of the deposited data

Results flagged for a closer look

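In 24 comparisons of peak number and covered length per gene and mark, a pair had Ep300 deletion effects of at least 10% in opposite directions in the WT and Tet2-/- backgrounds. Runx1 had 8 H3K4me3 peaks in WT and 6 in Ep300Δ/Δ cells, but 9 in Tet2-/- and 10 in Ep300Δ/Δ Tet2-/- cells, while the covered length changed by -17.8% and 0.32%. Runx2 had 76 H3K4me1 peaks in WT and 67 in Ep300Δ/Δ cells, but 68 in Tet2-/- and 75 in Ep300Δ/Δ Tet2-/- cells. This held for peak number alone, as the covered length changed by -13.2% and -6.28%, the same direction in both backgrounds. The difference between backgrounds was not tested, since each value rests on 1 library.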

How the results depend on the processing

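Of 99 values recomputed at the 4 genes under other settings, 70 stayed within the interval of the main value and 29 moved, and for each the cause was not tested beyond the construction of the alternative. Genome values at the same setting stand in brackets. Counting regions within 500 bp as shared gave H3K27ac losses of 24.4% [29.5%] for Ep300 deletion in Tet2-/- cells, 25% [26.3%] for Tet2 loss with Ep300 and 24.4% [21.3%] for Tet2 loss without it, H3K4me1 losses of 17.6% [25.1%] and 18.4% [21.3%] in the WT and Tet2-/- backgrounds, and all-genotype shares of 50.7% [45%] for H3K27ac and 58% [47.6%] for H3K4me1. With −log10 q of at least 5, H3K27ac losses were 60% [45.8%] for Ep300 deletion in WT and 18.2% [16.4%] for Tet2 loss without Ep300, and H3K4me1 losses 35.7% [51%] and 37.9% [44.1%]. With lists of equal size, H3K27ac losses were 25.9% [23.5%] for Ep300 deletion in Tet2-/- cells and 20% [21.4%] for Tet2 loss without Ep300, and gains in the WT background 25.9% [16.8%]. For regions above their list's median fold, H3K27ac losses were 17.4% [12.9%], 20% [11.8%], 8.33% [11.1%] and 0% [8.77%] over the 4 contrasts in the order of the report, gains 0% [1.81%] and 0% [2.74%], H3K4me1 losses 12.5% [23.8%] and 12.2% [19.9%], and all-genotype shares 69% [69.1%], 70.3% [52.5%] and 100% [99.3%] for H3K27ac, H3K4me1 and H3K4me3. Outside promoters of 3 kb, H3K27ac loss in the Tet2-/- background was 60% [61.9%] and all-genotype shares were 21.7% [14.4%] for H3K27ac and 46.7% [41.3%] for H3K4me3, which was 44.4% [39.1%] outside 1 kb. H3K27ac losses lay on the same side of the genome value as reported in 6, 6, 5 and 7 of 9 settings over the 4 contrasts, whereas H3K4me1 losses after Ep300 deletion stayed below the genome in 9 of 9 in both backgrounds. Covered length and the enhancer's percentile were tested under alternatives chosen after seeing the data, where 50 of 56 values moved by less than 1.5 times and 6 by more. Runx1 and Runx3 stayed below the genome in 12 of 12 values each. None of these alternatives left out promoters, and the values rest on the same libraries. Runx2 gave 36.7% at the stricter q and 95.1%, 117% and 122% with equal lists, and Cbfb in Tet2-/- cells 42.6% under both, and Cbfb lay below the genome in 5 of 12 alternative values. No paired analysis was possible because each genotype and mark has 1 library, which also allows no replicate to be left out. Depth is unknown, so absent calls may be undetected marks.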

Other observations

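Genes within these windows carried H3K27ac at their own starts. The region at the start of D230025D16Rik, chr8:105224407-105226497, ranked at percentile 84.6, 75.2, 90.6 and 44 in WT, Ep300Δ/Δ, Tet2-/- and Ep300Δ/Δ Tet2-/- cells. The region at the start of Supt3, chr17:44777192-44777941, inside Runx2, ranked at 73.8, 68.6, 79.8 and 31. Both were chosen after their values were seen.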
